A study of Mus musculus with 3 samples.

Results

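Mock transfection and a non-targeting siRNA (nt) are the controls of an RNA interference screen in mouse embryonic fibroblasts on the way to pluripotency, and the values here are a direct comparison of the one with the other. The members are libraries, chosen by name: the 5 Mock libraries kept here (2 each of replicates 1 and 2, and the deeper of the 2 of replicate 3) and the 3 nt libraries, 1 per replicate, out of 129 libraries with counts. All cells were wild-type BL6 fibroblasts transduced with a lentiviral cassette of Oct4, Sox2, Klf4 and c-Myc that doxycycline switches on through the rtTA transactivator, and were reprogrammed at passage 2 in medium with LIF, ascorbic acid, a GSK3 inhibitor (chiron) and a TGF-beta receptor inhibitor. Transfected cells received pooled siRNAs with a lipid reagent before induction were plated anew a day later, and were collected on day 6 of reprogramming; whether the Mock wells received the lipid reagent without siRNA is not given in the sources used here. RNA was read in bulk by CEL-Seq2, which tags the 3′ end of each transcript with a library barcode and a unique molecular identifier. The 98 libraries of 33 siRNA conditions and the untransfected time course from day 0 to day 6 (Day00 and Day06 at its ends) served as references, and a replicate is a sequenced pool, so the spread between libraries may be technical in part.

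A non-targeting siRNA enters the RNA-induced silencing complex without a perfect partner among the cell's transcripts, and a mock transfection takes the cells through the procedure without a specific siRNA. Such controls are set side by side to ask what a duplex of neutral sequence adds: a small RNA can engage the Argonaute machinery, can match the seed of unintended transcripts, and, in cells that sense double-stranded RNA, can raise interferon-stimulated genes. The fibroblasts are also the cells in which the ectopic factors raise ribosome production, cell division and epithelial genes during the first days of reprogramming.

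The Mock libraries were shallower than the nt library of their replicate without exception. Total counts were 49713 and 38925 for Mock against 75100 for nt in replicate 1, 42457 and 49873 against 80136 in replicate 2, and 83089 against 143156 in replicate 3. Genes with at least 1 count numbered 6267 to 8861 in Mock and 8402 to 10313 in nt. After every library was thinned to 38925 counts the numbers were 6092 to 6553 and 6288 to 6546, and the groups overlapped (difference -75.2 genes, exact two-sided permutation within replicates, p = 0.333). The other Mock library of replicate 3, with 6403 counts, was left out as the authors had done. The fibroblast markers were all detected (10 of 10, summed 1539 to 3430 CPM in Mock and 1626 to 2381 CPM in nt), while all 5 cartilage markers were at 0 and 7 of 11 macrophage, 6 of 9 endothelial, 7 of 11 skeletal muscle and 5 of 7 adipocyte markers were at 0 in these libraries. All 9 neuron markers had counts, summed to 206 to 375 CPM in Mock and 237 to 299.8 CPM in nt, and the adipocyte markers summed to 44.8 to 137 CPM and 66.6 to 89.9 CPM; both ranges overlapped between the groups. Levels are given as CPM, counts scaled to a common TMM-normalized total of the tested genes. A log2 fold change is given as Mock minus nt unless stated, with its standard error.

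Many of the features that separated the controls were copies of one another, so the sequences are shown first. The first set is a family of 12 gene models on chromosomes 9, 2 and 14 (GRCm38) that are made of a tandem repeat: 7 of 9 transcripts of Gm10717 matched themselves best when shifted by 234 bases, the length of the mouse major satellite unit that makes up pericentromeric heterochromatin, and the other 2 when shifted by 237. The best shift was 234 for the transcripts of Gm21738 and Gm10722, 231 for Gm10801 and 225 for Gm10800. The following 80-base stretches show how alike these models are, and how well reads could be placed among them was not tested. That of Gm10717 lies at the start of the model, whereas CEL-Seq2 tags the 3′ end of a transcript. Capitals mark bases that differ from the first line at the same position, with no gap allowed.
Gm10717, chr9:3025417-3025496, plus strand: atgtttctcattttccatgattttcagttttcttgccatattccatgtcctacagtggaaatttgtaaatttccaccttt
Gm21738, chr14:19417217-19417296, minus strand: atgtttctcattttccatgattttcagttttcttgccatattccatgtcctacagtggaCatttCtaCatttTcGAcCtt
Gm10801, chr2:98663814-98663893, plus strand: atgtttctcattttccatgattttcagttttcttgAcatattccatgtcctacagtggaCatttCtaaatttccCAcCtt
Gm10722, chr9:3001126-3001205, plus strand: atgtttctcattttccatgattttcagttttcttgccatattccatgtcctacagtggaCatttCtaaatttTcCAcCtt
Gm10800, chr2:98666737-98666816, minus strand: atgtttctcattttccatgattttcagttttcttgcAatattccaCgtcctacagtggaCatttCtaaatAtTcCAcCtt
The stretches of Gm21738, Gm10801, Gm10722 and Gm10800 were equal to that of Gm10717 at 73, 74, 74 and 71 of 80 bases.

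The second kind is a gene and its pseudogene. The mitochondrial gene mt-Nd4l has a nuclear copy, Gm10222, in a block of mitochondrial sequence on chromosome 1, and the glycolytic gene Gapdh has processed copies throughout the genome, of which Gm7336 is one. In both pairs the stretch shown was the same in gene and copy at all 80 bases. The third pair, Rps3a1 (a protein of the small ribosomal subunit) and Gm13408, had 2 differences in 80 bases, in capitals.
mt-Nd4l, chrM:10091-10170, plus strand, and Gm10222, chr1:24612407-24612486, minus strand: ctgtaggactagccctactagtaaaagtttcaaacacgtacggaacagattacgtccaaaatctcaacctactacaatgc
Gapdh, chr6:125162212-125162291, minus strand, and Gm7336, chr7:51747549-51747628, plus strand: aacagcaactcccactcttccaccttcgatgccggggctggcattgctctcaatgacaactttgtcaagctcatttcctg
Rps3a1, chr3:86137992-86138071, minus strand: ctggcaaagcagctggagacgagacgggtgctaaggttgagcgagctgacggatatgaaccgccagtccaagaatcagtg
Gm13408, chr2:34565716-34565795, plus strand: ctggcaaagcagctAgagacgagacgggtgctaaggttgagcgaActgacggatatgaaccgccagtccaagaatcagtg
Of the 46 called genes found in the annotation, 33 had at least 1 other gene with 95% identity or more over the aligned part (for Ncl this is Snora75, a small nucleolar RNA gene inside it), and their single values are uncertain to the extent that reads were split between copies.

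Between Mock and nt, 47 of 3013 tested genes differed at an adjusted p under 0.05 (1.56% of genes; edgeR quasi-likelihood test with the replicate as a block), 31 higher in Mock (1.03%) and 16 lower (0.531%). With RLE in place of TMM scaling the split was 39 higher and 11 lower. Without a correction, 349 genes had a p under 0.05. The calls rested on all 3 replicates: without replicate 1, 2 or 3 they numbered 21, 15 and 15, and 10 without the replicate block. With Mock and nt thinned to 1 depth, 13 genes were called. The 31 higher genes were mainly of 3 kinds: 9 satellite-like models, 5 mitochondrial genes or nuclear copies of them, and 11 ribosomal protein genes or their copies. The 16 lower genes included 3 copies of ribosomal protein genes and 13 others, among them Ncl, Wdr43 and Utp3 of the nucleolus and Pgk1 of glycolysis.

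After near-identical gene models were summed to 1 feature, a step chosen after the single values were seen (as were the merged features named below that were not called singly), 2517 features remained, and 17 were called (0.675%), 5 higher in Mock (0.199%) and 12 lower (0.477%). The direction of this split depends on the scaling: with RLE the merged features numbered 22 higher and 11 lower, and the median log2 fold change of all features moved from -0.02 to 0.05. Without replicates 1, 2 and 3 the counts were 11, 7 and 2, of which 9, 6 and 2 were among the 17, and without the replicate block 2 were called, Gapdh and Psmd2. With Mock and nt thinned to 1 depth, Psmd2, Ncl, Rplp0, Wdr43, Farsb, Pgk1, Kpna2, Abce1 and Amd1 were among those no longer called. Gapdh was the only merged feature called under every one of the 7 alternatives run on it, and the satellite-like family was called under 6 of them, all but the one without the block. A fit with the Mock libraries of a replicate summed was not run on the merged features.

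**Figure D1:**
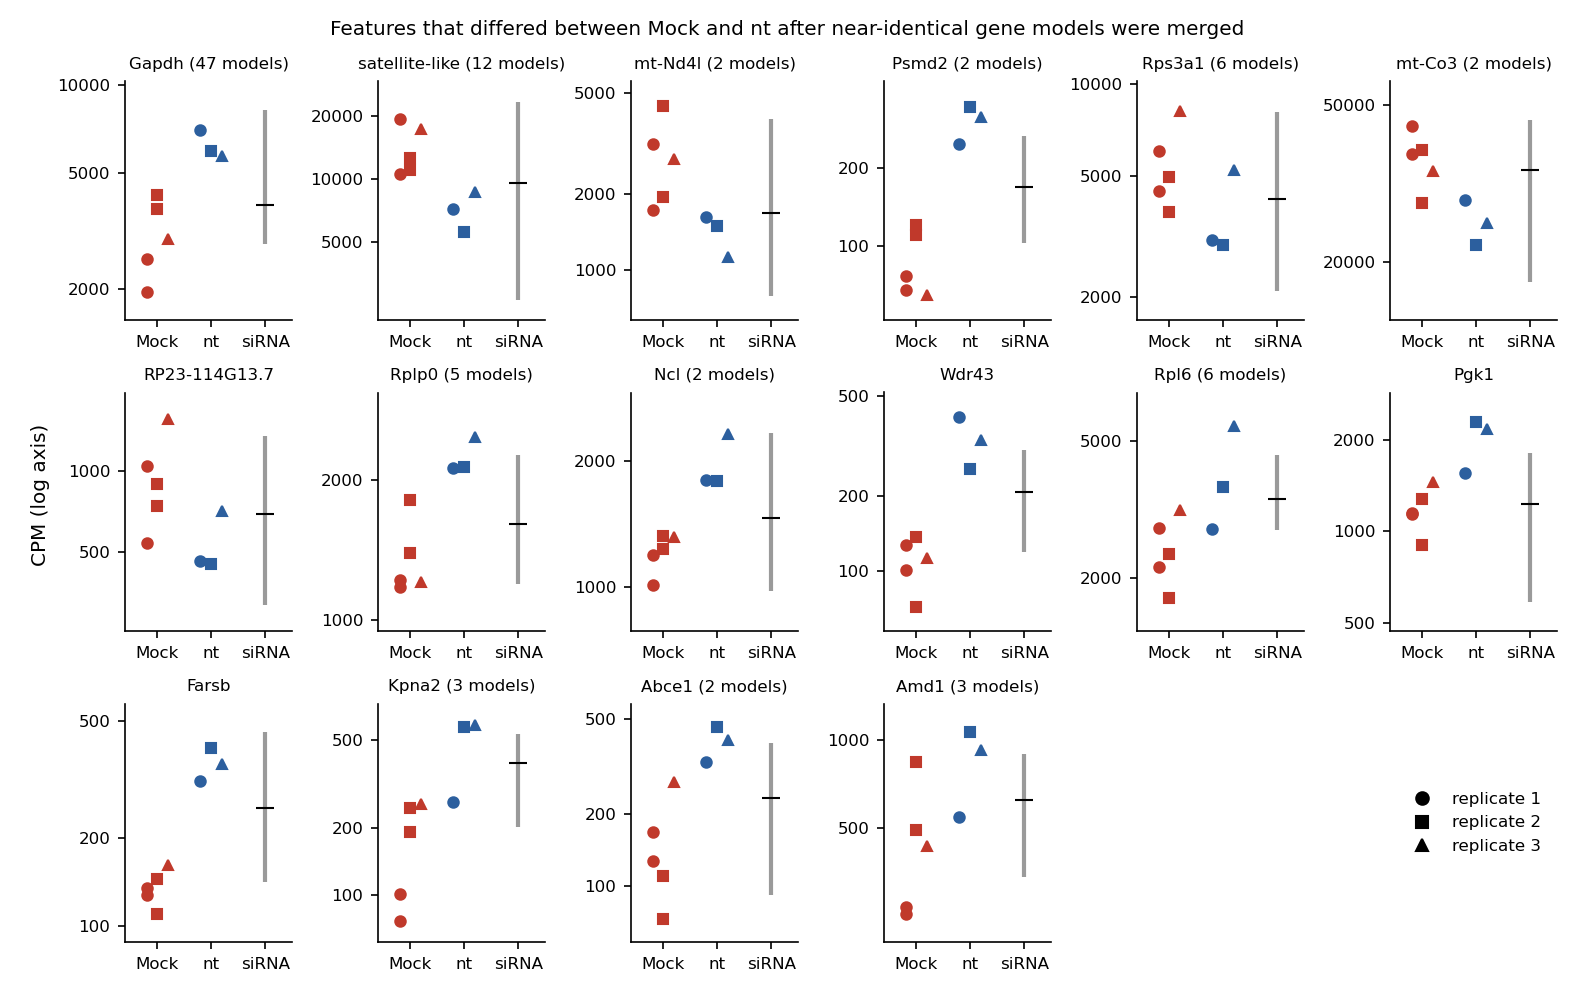
CPM (log axis) of 16 of the 17 merged features called between Mock and nt, 1 panel each. Red points are the 5 Mock libraries, blue points the 3 nt libraries, with the shape giving the replicate; the grey bar spans the means of the 33 siRNA conditions and the black dash is their median. Gapdh lies at 1954 to 4199 CPM in Mock and 5729 to 7020 CPM in nt, and the satellite-like family at 10575 to 19376 CPM and 5540 to 8625 CPM.

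The satellite-like family rose in Mock. Its 12 tested models summed to 10575 and 19376 CPM in the Mock libraries of replicate 1, 12569 and 11084 CPM in replicate 2 and 17301 CPM in replicate 3, and to 7169, 5540 and 8625 CPM in nt of replicates 1, 2 and 3. Every Mock library stood above every nt library. The merged log2 fold change was 1.03 ± 0.17 (SE; adjusted p = 1.5e-05), and it was still called without replicate 1, 2 or 3 (adjusted p = 1.9e-05, 0.0098 and 0.00023) but not without the replicate block (adjusted p = 0.064). Taken singly, all 12 models had a positive fold change and 9 were called, though the share of each model in the family's reads is uncertain. In bulk RNA, more transcript per cell and more cells with it cannot be told apart, here and in all results that follow.

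Gm21738, on chromosome 14 (19415857 to 19418930), had the lowest p of the single models. Its levels were 2271 and 3536 CPM in Mock of replicate 1, 2219.5 and 2060.4 CPM in replicate 2 and 2717 CPM in replicate 3, against 1132 CPM, 733 CPM and 1193 CPM in nt. The groups did not overlap, and the log2 fold change was 1.31 ± 0.19 (SE; adjusted p = 1.1e-07). Gm10801, at 98662237 to 98664083 on chromosome 2, had 1342 to 2815 CPM in Mock and 683 to 866 CPM in nt (log2 fold change 1.20 ± 0.20, adjusted p = 8.2e-06). Gm10717, at 3025417 to 3033289 on chromosome 9, had 877 to 1511 CPM in Mock and 389 to 596 CPM in nt (1.21 ± 0.22, adjusted p = 5.2e-05). Gm10722, the first model of the chromosome 9 cluster, had the largest fold change of the named satellite-like models, with 181 to 618 CPM in Mock and 66.6 to 180 CPM in nt (1.55 ± 0.33, adjusted p = 0.0012), and it was not called without replicate 1. Gm11168 of the same cluster had 310 to 790 CPM in Mock and 74.8 to 319 CPM in nt, and was not called without replicate 2.

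The siRNA conditions spanned a wide range of this family. Their means ran from 2623 to 23473 CPM with a median of 9558 CPM, 2 of the 33 lay above the Mock mean and 24 lay above the nt mean. The log2 fold change against the mean of the siRNA conditions was 0.70 for Mock (adjusted p = 5.1e-08) and -0.32 for nt (adjusted p = 0.33), where both comparisons share the siRNA libraries. Day00 and Day06 of the untransfected course had 7209 and 4600 CPM. In each replicate the level was also read against depth, since the Mock libraries were shallow. In the siRNA libraries Pearson's r with the log2 total was -0.106, -0.0686 and -0.246 in replicates 1, 2 and 3, a description over 33, 33 and 32 libraries that share their pool. The siRNA libraries of replicate 1 that lay within the depth of its Mock libraries (3 of them) had 2927 to 16387 CPM, those of replicate 2 (4) had 5222 to 9779 CPM, and 9 of replicate 3 with 66471 to 103861 counts had 5681 to 16031 CPM. For Rplp0 with its copies the same r was 0.195, 0.197 and 0.604, and for Rpl10a with its copies -0.203, -0.412 and -0.281. It was -0.383, -0.0398 and -0.145 for mt-Nd4l, 0.0919, -0.00744 and -0.135 for mt-Co3 and 0.0228, 0.111 and 0.164 for Gapdh, also with copies. Depth moves with the Mock and nt labels in every replicate. Its part in these results was not tested beyond the thinned fit, in which the satellite-like family was still called.

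**Figure D2:**
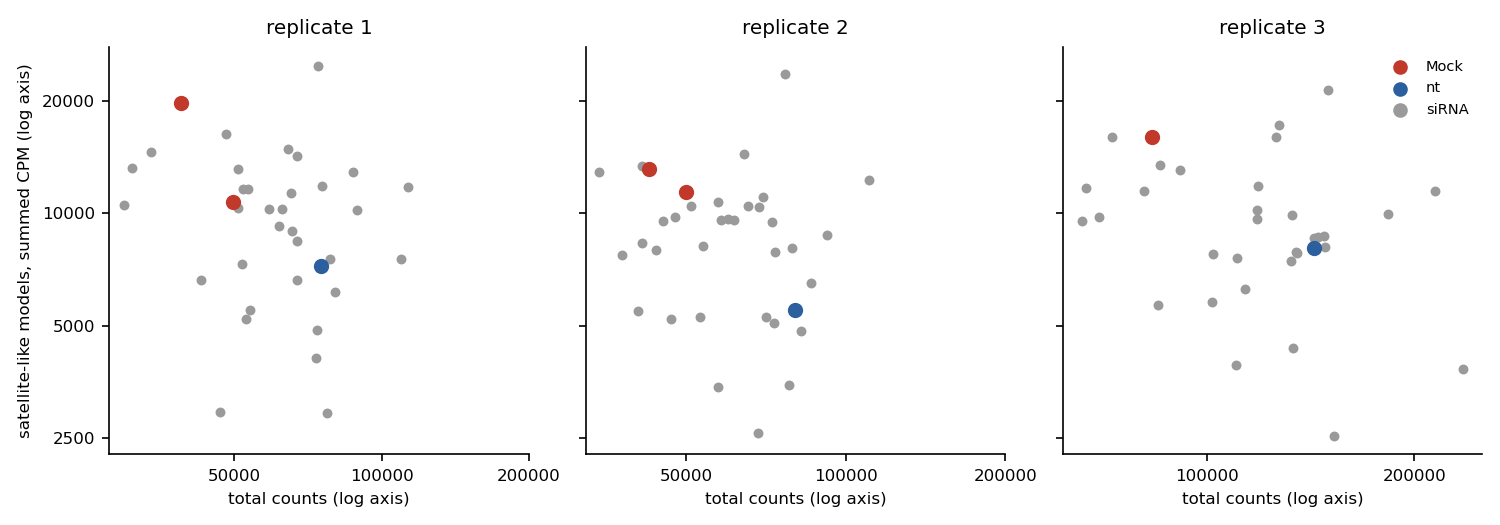
Summed CPM of the satellite-like gene models (log axis) against total counts of the library (log axis), by replicate. Red points are Mock, blue points nt and grey points the siRNA libraries; CPM carry the scaling of the gene-level fit and differ slightly from those of the merged fit. Both Mock libraries of replicates 1 and 2, and that of replicate 3, lie to the left of and above the nt library of the replicate.

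Mitochondrially encoded transcripts were the next group. mt-Co3, a core subunit of cytochrome c oxidase encoded at 8607 to 9390 of the mitochondrial genome, had 22527 and 18369 CPM in Mock of replicate 1, 19659 and 14622 CPM in replicate 2 and 15404 CPM in replicate 3, against 13955 CPM, 11022.5 CPM and 11609 CPM in nt. All 5 Mock libraries stood above all 3 nt libraries (log2 fold change 0.56 ± 0.11, adjusted p = 0.00083), and the call was lost without replicate 2. The nuclear copy Gm28437, which is 100% identical, took about as many counts (2996 for mt-Co3 and 3097 for Gm28437 over the 3 nt libraries) and moved with it (0.56 ± 0.11). Summed to 1 feature, they had 28228 to 44409 CPM in Mock and 22175 to 28774 CPM in nt (0.53 ± 0.12, adjusted p = 0.0040), and the lowest Mock library lay below the highest nt library. The merged call was lost without replicate 2 (adjusted p = 0.28) or 3 (adjusted p = 0.059).

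mt-Nd4l, a small membrane subunit of respiratory complex I, was at 981 and 1648 CPM in Mock of replicate 1, 951 CPM and 2085 CPM in replicate 2 and 1328 CPM in replicate 3, and at 899 CPM, 658 CPM and 515 CPM in nt. With its copy Gm10222 the feature had a log2 fold change of 0.98 ± 0.20 (adjusted p = 0.0018). It was called without replicate 1 and missed the threshold without replicate 2 (adjusted p = 0.058) or 3 (adjusted p = 0.059). The 2 Mock libraries of replicate 2 differed more from each other (1948 and 4448 CPM for the merged feature) than the lower one did from its nt library (1490.4 CPM).

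The 2 most abundant members of the list, the ribosomal RNAs mt-Rnr2 and mt-Rnr1, did not pass. mt-Rnr2 had a mean of 107258 ± 22028 CPM (SD, n = 5) in Mock and 88920.3 ± 15037 CPM (SD, n = 3) in nt (log2 fold change 0.23, adjusted p = 0.57), and mt-Rnr1 had 73203 ± 7881 CPM and 68833 ± 8322 CPM (0.11, adjusted p = 0.84). Of 17 mitochondrial genes tested, 2 rose (1.03% of all genes did), none fell, and 14 had a positive value, beside 1524 of all 3013 genes. Their median was 0.23, and 0.13 without replicate 3, against 0.01 over all genes tested. The mitochondrial share of all counts was 27.1% and 28.6% in Mock of replicate 1, 25.7% and 25.5% in replicate 2 and 22.9% in replicate 3, beside 26.3%, 24.4% and 22.8% in nt. Within each replicate Mock was the higher, by 0.917 percentage points on average, at the smallest p that 18 arrangements allow (exact two-sided permutation within replicates, p = 0.0556, adjusted 0.111). In replicate 3 the difference was small, and the average was 0.594 points without replicate 1, 0.795 without replicate 2 and 1.36 without replicate 3.

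Ribosomal protein genes moved in both directions. Of 75 listed genes that were tested, 2 rose (Rps7 and Rpl10a; 1.03% of all genes rose), none fell, and 45 had a positive value, with a median log2 fold change of 0.08 against 0.01 over all genes, of which 1524 of 3013 had a positive value. After their pseudogene copies were summed, 72 features were left, of which 41 had a positive and 31 a negative value, 1 was called higher (Rps3a1) and 2 were called lower (Rplp0 and Rpl6), beside 0.199% and 0.477% of all merged features. The share of counts that fell on ribosomal protein genes was 4.22% to 5.68% in Mock and 4.48% to 5.76% in nt (difference 0.0900 percentage points, exact permutation p = 0.833).

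Rps3a1 with 5 copies had 4449 and 6032 CPM in Mock of replicate 1, 3814 and 4953 CPM in replicate 2 and 8160 CPM in replicate 3, and 3072 CPM, 2966 CPM and 5213 CPM in nt. Each Mock library was above the nt library of its replicate, while the groups overlapped across replicates (log2 fold change 0.65 ± 0.14, adjusted p = 0.0038). The merged call missed the threshold without replicate 2 (adjusted p = 0.055) or 3 (adjusted p = 0.059). Its copy Gm13408, a processed pseudogene at 34564999 to 34565796 on chromosome 2, had the lowest p of all genes, with 903 to 1567 CPM in Mock and 316 to 629 CPM in nt (1.297 ± 0.19, adjusted p = 1.1e-07), and was called without each of the replicates. The copy Gm5586 rose by 0.89 on the log2 scale (adjusted p = 0.00083), and Gm7600 was also called. The gene Rps3a1 itself was not called (0.40, adjusted p = 0.26), nor were Rps3a3 (0.31, adjusted p = 0.74) and Rps3a2 (-0.11, adjusted p = 0.92). RP23-114G13.7, a gene model not in the annotation used here for positions, rose as well, with 549 to 1448 CPM in Mock and 449 to 662 CPM in nt (0.97 ± 0.20, adjusted p = 0.0010), and was not called without replicate 3.

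Rps7 and Rpl10a were called singly and not as sums. Rps7, of the small subunit, had 1738 to 2926 CPM in Mock and 1241 to 1683 CPM in nt with no overlap (log2 fold change 0.66 ± 0.15, adjusted p = 0.0051), and was not called without replicate 2 or 3. With its 8 copies the value was 0.47 ± 0.14 (adjusted p = 0.064). Rpl10a, of the large subunit, had 3252 to 5880 CPM in Mock and 3096 to 3447 CPM in nt (0.55 ± 0.13, adjusted p = 0.0077), was lost without any 1 of the replicates, and with 3 copies came to 0.44 ± 0.13 (adjusted p = 0.064). All 10 models of Rpl7 had a positive value and 3 of them were called; their sum had 23948 to 33453 CPM in Mock and 18194 to 27023 CPM in nt (0.42 ± 0.13, adjusted p = 0.070).

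On the other side stood Rplp0, the acidic protein of the ribosomal stalk, whose 5 models all had a negative value. Their sum was 1220.2 and 1179 CPM in Mock of replicate 1, 1811 and 1395 CPM in replicate 2 and 1207 CPM in replicate 3, below 2131, 2138 and 2475 CPM in nt, with no overlap (log2 fold change -0.70 ± 0.16, adjusted p = 0.0053). Its copies Gm9625 and Gm8730 were called singly. The merged call was lost without replicate 1 (adjusted p = 0.13) or 3 (adjusted p = 0.26), without the replicate block and after thinning. Rpl6, of the large subunit, had 1756 to 3154 CPM in Mock and 2775 to 5520 CPM in nt over 6 models (-0.61 ± 0.14, adjusted p = 0.0059), was lost without replicate 2 (adjusted p = 0.36) or 3 (adjusted p = 0.39), and in Mock lay below all 33 siRNA conditions. For Rpl27a the copy Gm14044 was called lower, with 115 counts in Mock and 248 in nt, and the sum of 14 models was -0.38 ± 0.13 (adjusted p = 0.14).

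**Figure D3:**
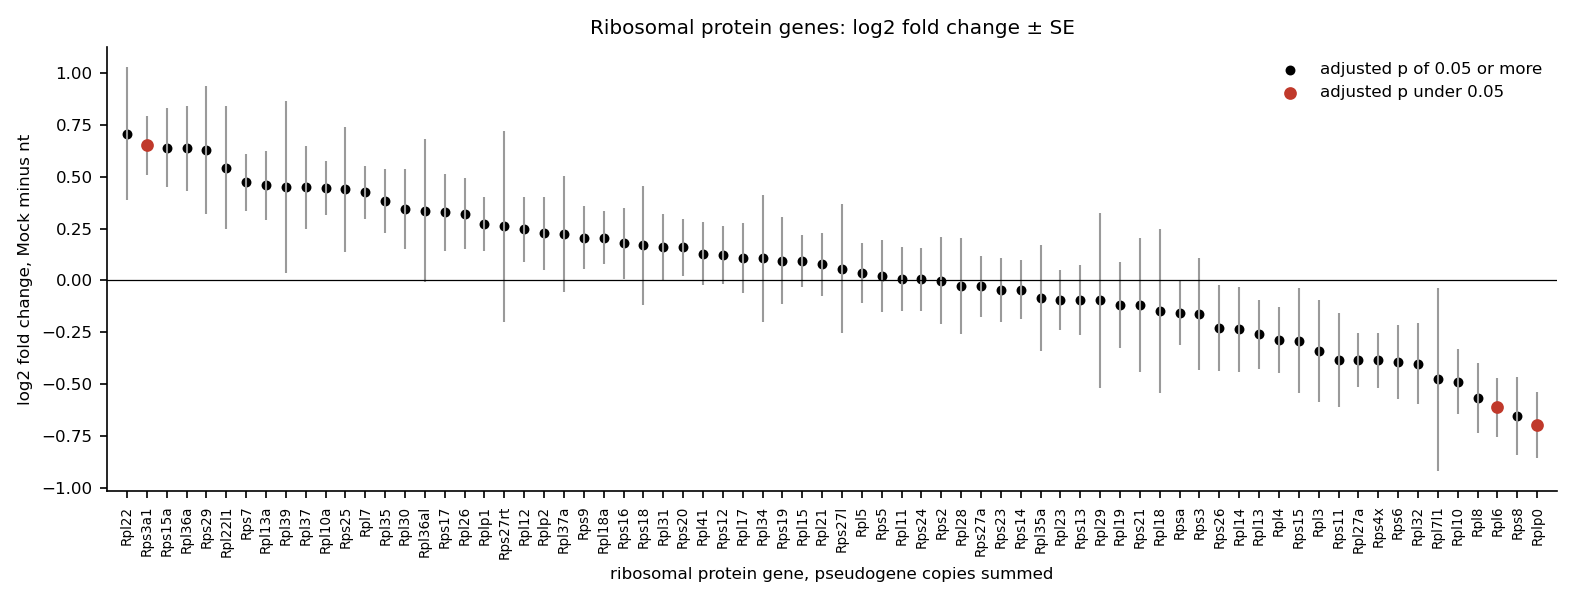
Log2 fold change of Mock minus nt (vertical axis) for each ribosomal protein gene with its pseudogene copies summed, in descending order along the horizontal axis; bars are ± 1 SE. Red points have an adjusted p under 0.05: Rps3a1 at 0.65, Rpl6 at -0.61 and Rplp0 at -0.70.

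The merged feature of lowest adjusted p among the lower ones was Gapdh, a glycolytic enzyme and a common reference transcript. Its 47 gene models together had 2542 and 1954 CPM in Mock of replicate 1, 4199 and 3775 CPM in replicate 2 and 2961 CPM in replicate 3, against 7020.1 CPM, 5931.5 CPM and 5729 CPM in nt. The groups lay apart. The log2 fold change was -1.02 ± 0.17 (adjusted p = 1.5e-05), and it was called without replicate 1, 2 or 3 (adjusted p = 0.043, 1.7e-05 and 0.00026). Both controls differed from the mean of the siRNA conditions, Mock by -0.49 (adjusted p = 0.0077) and nt by 0.54 (adjusted p = 0.0097). All 47 models had a negative value, and 1 was called singly, the copy Gm7336, named after its values were seen, at 172 to 375 CPM in Mock and 449 to 550 CPM in nt, and the model named Gapdh had a log2 fold change of -0.48 (adjusted p = 0.60).

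Pgk1, the next enzyme of glycolysis, also fell. It had 1161 and 1167 CPM in Mock of replicate 1, 951 CPM and 1316 CPM in replicate 2 and 1343 CPM in replicate 3, and 1565, 2273 and 2026 CPM in nt. The groups did not overlap (log2 fold change -0.70 ± 0.17, adjusted p = 0.0077), and the call was lost without replicate 2 or 3. Against the mean of the siRNA conditions nt was at 0.77 (adjusted p = 9.4e-07) and Mock at 0.06 (adjusted p = 0.91), and no siRNA condition had a mean above that of nt. Of 10 glycolysis genes tested, Pgk1 was the 1 called (0.531% of all genes fell), none rose, and 4 had a positive value, beside 1524 of all 3013 genes. Ldha, lactate dehydrogenase and the list's other abundant member, had 986 ± 30.4 CPM (SD, n = 5) and 962 ± 86.1 CPM (SD, n = 3).

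Nucleolar genes made up the next group of lower transcripts. Ncl, which encodes nucleolin, had 1032 and 927 CPM in Mock of replicate 1, 1153 and 1216 CPM in replicate 2 and 1029.9 CPM in replicate 3, and 1565, 1600.3 and 1805 CPM in nt, with no overlap (log2 fold change -0.65 ± 0.16, adjusted p = 0.0072); it was lost without replicate 1 or 3. Wdr43, part of the complex that processes precursor ribosomal RNA, had 129, 103, 144, 74.5 and 104 CPM in Mock and 416, 254 and 310.4 CPM in nt (-1.56 ± 0.36, adjusted p = 0.0050), from 23 and 80 counts, and was lost without replicate 1 or 3. The Wdr43 mean was lower in Mock and higher in nt than in any of the 33 siRNA conditions, but neither control was called against their mean (adjusted p = 0.089 in Mock and 0.14 in nt). Utp3, of the same processing machinery, had 24.8 to 119 CPM in Mock and 209 to 250 CPM in nt (-1.42 ± 0.40, adjusted p = 0.038) and was lost without any 1 of the replicates. Wdr43, Rpl10a, Gm11168 and Gm10715, and Farsb among the genes below, overlap a gene on the opposite strand, and whether reads were counted by strand is not given in the sources used here.

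Of 20 tested genes of ribosome biogenesis and the nucleolus, 2 fell (0.531% of all genes did), none rose and 6 had a positive value, beside 1524 of all 3013 genes, with a median of -0.26 against 0.01. Npm1, nucleophosmin and the most abundant of them, had 6112 ± 796 CPM (SD, n = 5) in Mock and 6234 ± 657 CPM (SD, n = 3) in nt (log2 fold change -0.01, adjusted p = 0.99). The spread within the list was thus wide, from -1.56 to 0.62.

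The remaining lower genes were of low level. Psmd2, a scaffold subunit of the regulatory particle of the proteasome, had 25.8, 68.7, 86.5, 124.1 and 44.8 CPM in Mock and 200, 209 and 180 CPM in nt (log2 fold change -1.52 ± 0.44, adjusted p = 0.049), from 14 and 48 counts. Summed with its copy it was -1.79 ± 0.39 (adjusted p = 0.0038) and was lost without replicate 3 (adjusted p = 0.12) and after thinning to 1 depth. It was the 1 of 25 proteasome genes called (0.531% of all genes fell), and the 2 most abundant, Psma4 and Psma1, had log2 fold changes of 0.35 and 0.11 (adjusted p = 0.45 and 0.91).

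Farsb, a subunit of phenylalanyl-tRNA synthetase, had 115 to 149 CPM in Mock and 316 to 404 CPM in nt (log2 fold change -1.36, adjusted p = 0.0096). Abce1, which splits ribosomes after termination, had 49.6 to 164 CPM and 233 to 329 CPM (-1.51, adjusted p = 0.011). Amd1, the decarboxylase that supplies polyamine synthesis, had 103 to 323 CPM and 283 to 494 CPM (-1.09, adjusted p = 0.023). Tcf12, a basic helix-loop-helix factor, had 49.6 to 86.5 CPM and 167 to 196 CPM (-1.50, adjusted p = 0.044). Each of the 4 was lost without at least 2 of the 3 replicates. After merging, Kpna2, an importin, was also called (76.3 to 258 CPM in Mock and 264 to 586 CPM in nt, -1.303, adjusted p = 0.018) and was lost without any 1 replicate; it was singled out after its values were seen.

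**Figure D4:**
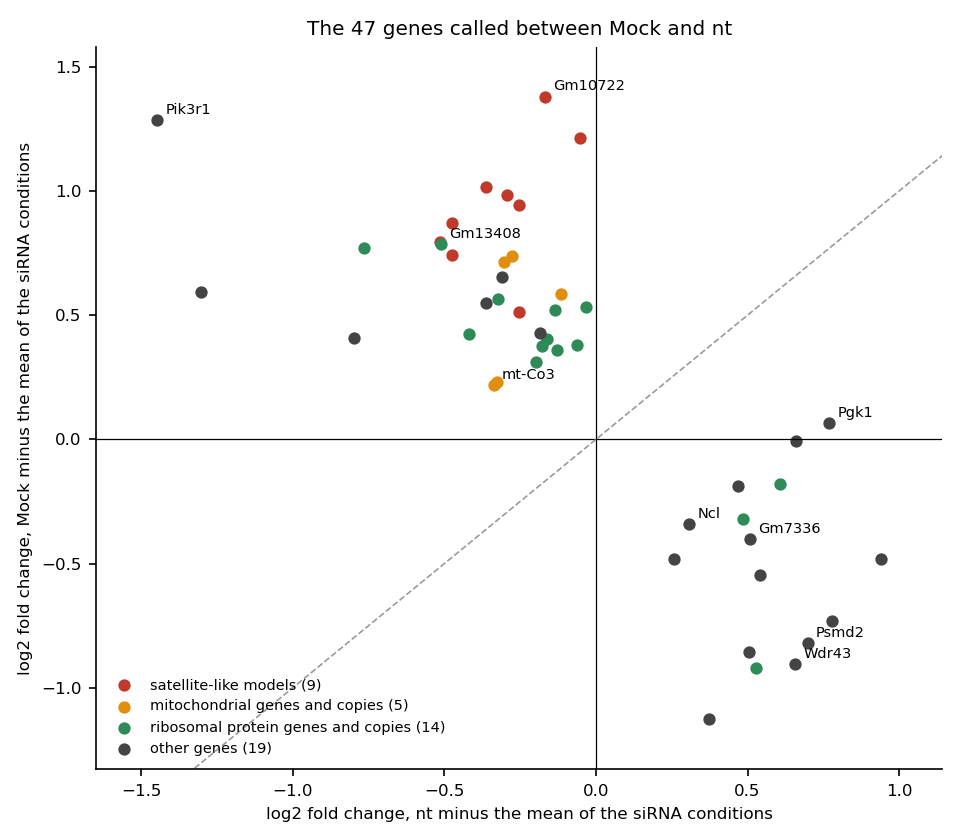
Each of the 47 genes called between Mock and nt, by its log2 fold change against the mean of the 33 siRNA conditions in nt (horizontal axis) and in Mock (vertical axis); colours give the kind of gene, and points off the dashed line of equality differ between the controls. The 31 genes higher in Mock lie at the upper left and 15 of the 16 lower ones at the lower right; Pgk1, at 0.77 in nt and 0.06 in Mock, lies just above the zero line at the right. The 2 axes share the siRNA libraries.

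The mean of the siRNA conditions gave a reference that is neither control. Against it 74 genes were called in Mock (2.46%), 67 higher (2.22%) and 7 lower (0.232%), and 27 in nt (0.896%), 25 higher (0.83%) and 2 lower (0.0664%). Of the 31 genes higher in Mock than in nt, 25 were also called higher in Mock than the siRNA mean, 1 was called lower in nt (mt-Co3) and 5 were called in neither. Of the 16 lower genes, none was called lower in Mock, 4 were called higher in nt (Pgk1, Utp3, Gm14044 and Bclaf1) and 12 in neither. Of the merged features, 4 of the 5 higher ones were called higher in Mock than the siRNA mean, and of the 12 lower ones 3 were called lower in Mock (Gapdh, Rpl6 and Kpna2) and 5 higher in nt (Gapdh, Psmd2, Rplp0, Pgk1 and Abce1). Whether these proportions differ was not tested.

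Named by lowest adjusted p, the genes higher in Mock than the siRNA mean were Gm10801, Gm21738, Gm13408, Gm10722 and Gm10715, of which all but Gm13408 are satellite-like models. Those lower were Mllt3, Rock2, Akr1a1, Sparc and Lxn, at log2 values from -0.57 for Sparc to -2.10 for Lxn. Sparc, a collagen-binding matrix protein, had 429 CPM in Mock, 413 CPM in nt and 676 CPM as the mean of the siRNA conditions, so that both controls lay below that mean. In nt the genes of lowest p were Gm5611, Gm17060, Pgk1, Gm14776 and Gm14681, all higher, and both lower genes were Cdkn1a and mt-Co3. Cdkn1a, the p53-induced inhibitor of cyclin-dependent kinases, had 377 CPM in nt, 618 CPM in Mock and 631 CPM as the siRNA mean (-0.70 in nt, adjusted p = 0.019). Gm5611 had 5274 CPM in nt, 4112 CPM in Mock and 2815 CPM as the siRNA mean, so that here Mock lay on the same side as nt.

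Responses that a duplex could provoke were read from gene lists. With 1.56% of all genes called, a count of 0 in lists this short is near the background, here and in the stress lists, and says nothing of the response itself. Of 50 interferon-stimulated genes 5 passed the filter on low counts, and none of them was called; Ifitm3, the most abundant, an antiviral membrane protein, had 181 to 284 CPM in Mock and 254 to 384 CPM in nt (log2 fold change -0.43 ± 0.29, adjusted p = 0.62). The summed level of all 50 was 720 to 1149 CPM in Mock and 1047 to 1185 CPM in nt, and all 5 tested values were below 0, from -0.67 to -0.03. Ifitm2, of the same protein family, had 208 ± 107 CPM (SD, n = 5) and 214 ± 32.9 CPM (SD, n = 3). The listed genes below the filter were not tested. Of 10 tested genes of the small RNA machinery none was called, with values from -0.40 to 0.70. Hsp90aa1 and Hsp90ab1, the chaperones that load Argonaute among many other clients, had log2 fold changes of -0.15 ± 0.12 and 0.05 ± 0.18.

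The stress and damage lists held no called gene, again beside 1.56% of all genes. Of 15 tested p53 targets none passed, and Cdkn1a had 800, 515, 749, 769.6 and 254 CPM in Mock against 383, 404 and 343 CPM in nt (log2 fold change 0.61 ± 0.23, adjusted p = 0.19). It was above nt in the Mock libraries of replicates 1 and 2 and below it in that of replicate 3. None of 16 genes of the ATF4 and amino acid response, 12 endoplasmic reticulum chaperones, 18 heat shock proteins, 24 antioxidant genes and 13 genes of sterol and fatty acid synthesis was called. Nor was any of 7 tested immediate early genes (median 0.26), but all 28 listed summed to 612 to 865 CPM in Mock and 433 to 533 CPM in nt, without overlap. Of 7 tested low-oxygen genes none was called, with a median of -0.42, and the listed genes summed to 919 to 1585 CPM and 1242 to 1750 CPM.

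Genes of division and of fibroblast identity lay at opposite ends of the list medians, with no member called. The median log2 fold change was -0.51 over 30 tested genes of G2 and mitosis, of which 7 had a positive value and 6 had an unadjusted p under 0.05 on the negative side, and 0.31 over 40 matrix and mesenchymal genes, of which 33 had a positive value and 4 an unadjusted p under 0.05 on the positive side. Over all 3013 genes, 1524 had a positive value, and 178 had an unadjusted p under 0.05 on the negative and 171 on the positive side. Without replicate 1, 2 or 3 the median of the G2 and mitosis genes was -0.48, -0.37 and -0.28 and that of the matrix genes 0.40, 0.11 and 0.33. The summed G2 and mitosis level was 5563 to 6256 CPM in Mock and 5862 to 8196 CPM in nt, and that of the matrix genes was 6896 to 9397 CPM and 6029 to 7261 CPM; both overlapped. Arl6ip1, a membrane-shaping protein of the endoplasmic reticulum and the most abundant member of the G2 and mitosis list, had 1666 ± 232 CPM (SD, n = 5) in Mock and 1691 ± 408 CPM (SD, n = 3) in nt (log2 fold change -0.06, adjusted p = 0.94). Smc2, a condensin subunit, had 240 to 521 CPM in Mock and 433 to 719 CPM in nt (-0.52 ± 0.24, adjusted p = 0.35). Vim, the fibroblast intermediate filament vimentin, had 552 to 1018 CPM and 515 to 716 CPM (0.12 ± 0.20, adjusted p = 0.91), and Lgals1, the secreted lectin galectin-1, had 624 ± 127 CPM and 562 ± 21.2 CPM (0.14, adjusted p = 0.88). Of 14 tested genes of DNA replication and S phase none was called and 6 had a positive value, with a median of -0.11 that was 0.02 without replicate 2. Dut, which keeps uracil out of DNA, had 418 ± 106 CPM in Mock and 655 ± 191 CPM in nt (-0.61, adjusted p = 0.15), and Pcna, the sliding clamp of DNA polymerase, had 297 ± 46.3 CPM and 312 ± 35.1 CPM (-0.08, adjusted p = 0.97). Among 6 tested histone genes none was called, though H2afz, the variant H2A.Z, had 2472 to 3315 CPM in Mock and 2048 to 2165 CPM in nt with no overlap (0.47 ± 0.15, adjusted p = 0.076). Over the 3013 genes, 52 had all Mock libraries above all nt libraries (1.73%) and 102 had the reverse (3.39%).

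**Figure D5:**
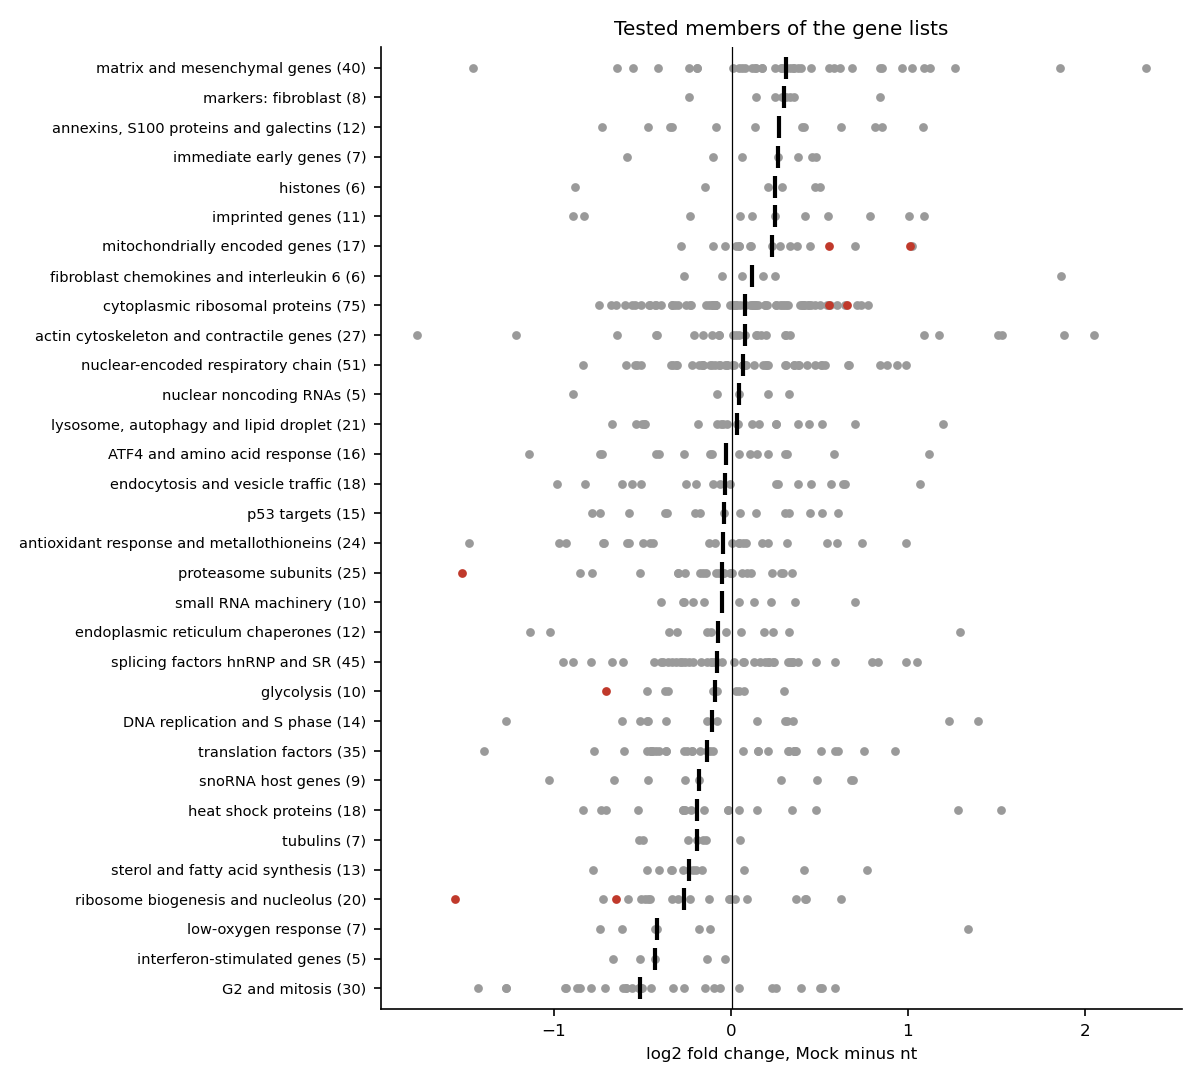
Log2 fold change of Mock minus nt (horizontal axis) for each tested member of the 32 lists with at least 5 tested members, named on the vertical axis with their number. Red points have an adjusted p under 0.05, grey points do not, black ticks are list medians and the vertical line is the median of all genes tested. Called members occur in 5 of the lists, and the medians run from -0.51 for G2 and mitosis to 0.31 for matrix and mesenchymal genes.

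A score for the change from Day00 to Day06 was read from 321 genes that were higher and 347 that were lower on Day06 than on Day00. They were chosen by the contrast of these untransfected days within the fit of all 127 libraries. The score was scaled to 0 at Day00 and 1 at Day06. The score did not rise steadily with time, at 0.579, 0.634 and 0.496 on Day01, Day02 and Day03. It gives the place along the difference between Day00 and Day06 in these genes, where a value above 1 lies beyond Day06. Whether it follows progress was not tested. Mock libraries were at 1.13, 1.03, 1.05, 1.02 and 1.13 and nt libraries at 1.09, 1.06 and 1.17. The groups overlapped, with a mean of 1.07 ± 0.0548 (SD, n = 5) and 1.11 ± 0.0553 (SD, n = 3) and a difference within replicates of -0.0268 (exact two-sided permutation, p = 0.389). The 33 siRNA conditions ran from 0.739 for siWdr5 to 1.24 for siPou5f1, so the difference between the controls was small beside their range. Of these conditions, 15 lay above the Mock mean and 5 above the nt mean. The highest score was that of a knockdown of Pou5f1, which encodes the reprogramming factor Oct4. With the normalized log2 values that the authors deposited, the difference was -0.128, at the smallest p that 18 arrangements allow (exact permutation, p = 0.0556).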

How the data were processed

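CEL-Seq2 libraries of Mock (5), nt (3), 33 siRNA conditions (98 libraries) and the untransfected time course were taken from a deposited table of UMI counts, which is unnormalized. To make it, the authors aligned reads to mm10 by Bowtie2 and counted UMIs per gene with the CEL-Seq2 pipeline and GENCODE annotation, as the methods of the paper state. The authors also deposited log2 values, log2 CPM with the batch regressed out. The methods also state that libraries of low quality were filtered out, and the dropped libraries are absent from these values but present in the counts. The log2 values were used only in alternatives and to tell which libraries the authors kept. The labels give the replicate, and the condition was read from the column name; both Mock columns of a replicate bear the same name. The Mock column of replicate 3 that the authors kept was matched by correlation to the deeper library (r 0.969 against 0.0128).

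The 127 libraries that the authors kept were fitted together with edgeR 4.0.16 in R 4.3.3 (quasi-likelihood test, TMM, filterByExpr by condition, terms for condition and replicate, 83 residual degrees of freedom), and p-values were adjusted by Benjamini-Hochberg over 3013 genes, with a threshold of 0.05. Total counts of the 8 libraries ran from 38925 to 143156, which limits low genes. The replicate was kept as a block because the study regressed out batch effects (which batch is not named in its methods) and because same-numbered libraries deviated together (median r 0.0981, and -0.0685 for different numbers); the number is that of the sequenced pool. Single measures were tested by exact permutation within replicates (18 arrangements, smallest p 0.0556). The 2 Mock libraries of replicates 1 and 2 entered the fit separately, though whether they came from separate wells is not known. If they did not, the SE and adjusted p of Mock rest on too many units. They differed by more than sampling noise (chi-square per degree of freedom 1.79 and 1.67). All pairs of libraries did so, some of different replicates by less (1.35), so this cannot decide it. A fit with the Mock libraries of a replicate summed is among the alternatives for single genes.

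Genes were named by rule: the 12 of lowest adjusted p in each direction, called members of a list, the 2 most abundant members of a described list, and the 5 of lowest adjusted p in each direction against the siRNA mean. The members and lists were chosen with earlier results of these data known. Gene models at 85% identity or more over 80% of the shorter transcript (at least 250 bases) were merged for a second fit. Positions and sequences come from GENCODE release 21 on GRCm38, the build the labels name, while the authors used another release. Scripts were tested on simulated counts. Alternatives were RLE, no block, each replicate left out, Mock libraries summed, thinning, 8 libraries only, 2 other filters, both Mock libraries of replicate 3, DESeq2 1.42.0, and limma 3.58.1 on the deposited log2 values. 1 called gene is not reported here.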

Additional observations from a re-analysis of the deposited data

Results flagged for a closer look

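The total count of the Mock library of replicate 3, 83089, stood apart from the other 4 Mock libraries (38925 to 49873) by Dixon's test at the 95% level; it was 1 of 49 measures so tested in the 5 Mock libraries, and chance alone gives about 1 in 20. The nt library of the same replicate was also the deepest of its group.

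The Mock library of replicate 3 that was left out for its depth of 6403 counts held 12.7% of its counts in the satellite-like gene models, above 1.29% in the Mock library kept from that replicate and 0.689% in the nt library of that replicate. Its share in mt-Nd4l with its copy was 1.70%, against 0.206% in the kept Mock library and 0.0894% in the nt library. That in mt-Co3 with its copy was 1.64%, against 2.55% and 2.01%. The library left out enters only the alternative that keeps both Mock libraries of replicate 3.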

How the results depend on the processing

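Of 47 genes called between Mock and nt, the count was 10 without the replicate block, 13 with Mock and nt thinned to 1 depth and 24 in a fit of the 8 libraries alone. It was 90 with a filter at a mean of 10 counts (913 genes tested), 1 with limma on the deposited log2 values and 17 after gene models alike in sequence were merged. It was 15 to 21 with 1 replicate left out. It was 50 with RLE, 45 with DESeq2, 42 with both Mock libraries of replicate 3, 38 with no filter and 32 with the Mock libraries of a replicate summed. Against the siRNA mean, the 74 genes of Mock were 29 without the replicate block and 48 after merging, and 31 to 50 with a replicate left out; the 27 genes of nt were 5 without the replicate block and 8 to 16 with a replicate left out. The 17 merged features were 33 with RLE, 2 without the replicate block, 8 after thinning, and 2 to 11 with a replicate left out; the cause was not tested, though leaving out a replicate leaves fewer libraries. Of 128 list medians with RLE or a replicate left out, 27 moved by more than the spread between replicates and 101 did not. None of the 27 called genes named by rule changed direction, nor did any of the 17 merged features. Genes named without a call were not traced in this way. Of the 27 genes, 17 lost their call without the block, 17 after thinning, 6 with the Mock libraries of a replicate summed and all 27 under limma. The difference in the share of ribosomal protein genes turned from 0.0900 to -0.00251 percentage points without replicate 1 and was 0.0975 and 0.175 without replicates 2 and 3. Depth limits the low genes: Wdr43, Psmd2 and Tcf12 rest on under 100 counts in either group.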
